A study of Mus musculus with 2 samples.

Results

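The 10 genes described here mark or equip the cells of brain vessels. Pecam1, Cdh5, Esam, Flt1, Kdr, Tek and Vwf are endothelial, Slc2a1 and Abcb1a encode transporters of the blood-brain barrier, and Pdgfrb marks mural cells, the pericytes and smooth muscle cells that wrap the endothelial tube. They were chosen by gene symbol, with earlier results of these data known. All 10 were among the 13381 protein-coding genes of the deposited gene table. The transcript table listed 16 transcripts of them among 23374. Mouse brain RNA was sequenced from 2 samples with the titles miR-7KD and WT, called the miR-7KD-titled and the WT-titled library below, both from C57BL/6J mice labelled 6 to 8 weeks old. Brain inflammation was induced with lipopolysaccharide (LPS), a component of bacterial outer membranes, at 2.5 mg/kg and examined after 12 h. The series title places both libraries in the inflamed condition, so that no uninflamed tissue is compared here. Values are FPKM, mapped fragments scaled to transcript length and library size.

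Which mouse lacked miR-7 is contradicted within the labels. The sample titled miR-7KD has wild type in its genotype field, the sample titled WT has miR-7 KD there, and both descriptions speak of a wild type mouse. The descriptions present each sample as standing for several replicates, without saying whether RNA was pooled. The titles alone name the libraries here, and "higher" or "lower" always means higher or lower in the miR-7KD-titled one. Of each pair of values the former belongs to that library and the latter to the WT-titled one. How miR-7 was lowered, and in which cells, is not stated in the labels or methods used here. The tissue field names brain and the extraction text names retinas. Neuronal and oligodendrocyte genes were abundant in both libraries, with summed levels of 677 and 687 FPKM over 8 neuronal markers and of 470 and 442 over the 7 of 8 oligodendrocyte markers in the table. Each title has 1 library, so no spread and no test can be given, and every difference compares these libraries and not the genotypes. Read counts were not analysed here, so the depth and the counting error are unknown. All FPKM of the gene table summed to 164811 and 162981.

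Endothelial cells of the brain are joined by adherens and tight junctions into a sheet that lets few molecules pass between cells, and they carry nutrients across by transporters and return many drugs to the blood by efflux pumps. Vascular endothelial growth factors act through the receptors FLT1 and KDR, angiopoietins act through TEK, and platelet-derived growth factor B from the endothelium holds pericytes at the vessel through PDGFRB. LPS is known to act on this endothelium, which displays adhesion molecules for leukocytes and may open its junctions.

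Mature miR-7 sequences are shown because they set which letters in a 3′-UTR could pair with the microRNA whose loss the study addresses. In RefSeq (GRCm38.p6) Mir7-1 lies on chr13, Mir7-2 on chr7 and Mir7b on chr17, and the mature forms fall into 3 groups by their seed, bases 2 to 8, in capitals.
miR-7a-5p: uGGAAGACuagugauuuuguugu
miR-7b-5p: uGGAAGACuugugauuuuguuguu
miR-7a-2-3p: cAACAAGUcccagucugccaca
miR-7b-3p: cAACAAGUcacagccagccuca
miR-7a-1-3p: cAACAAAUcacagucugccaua
The 5p arms share 1 seed, whose complement in a messenger RNA is GTCTTCC. The complement for miR-7a-2-3p and miR-7b-3p is ACTTGTT, and that for miR-7a-1-3p is ATTTGTT.

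In the longest annotated 3′-UTR (GENCODE M21, sense strand only, exact matches, with no overlap among the 3 motifs), GTCTTCC was found in 3 of the 10 genes, ACTTGTT in 1 and ATTTGTT in 0. Among 11883 genes at 1 FPKM or more with an annotated 3′-UTR, GTCTTCC was in 14.2%, ACTTGTT in 14.9% and ATTTGTT in 21.1%. The windows below are those of the members that hold a match, with the 7 matching bases in capitals.
Pecam1, chr11:106654910-106654916, minus strand: cagcctgacctGTCTTCCttgtgtttcgg
Cdh5, chr8:104143061-104143067, plus strand: caccggacactGTCTTCCctgatttccaa
Cdh5, chr8:104143350-104143356, plus strand: ctgaacttttaGTCTTCCccaagggtccc
Flt1, chr5:147637506-147637512, minus strand: tctgaggcaatGTCTTCCtccagggaaac
Tek, chr4:94874306-94874312, plus strand: tgtaatgcataACTTGTTattgtcctaga
These positions are on GRCm38 and give the matching bases, which start at base 227 of a 3′-UTR of 926 bases in Pecam1, at bases 63 and 352 of 1513 in Cdh5, at base 1618 of 3971 in Flt1 and at base 308 of 978 in Tek. Kdr, Vwf, Pdgfrb, Esam, Slc2a1 and Abcb1a held none of the 3 motifs in this window. The log2 ratios of the genes with a match were 0.11 for Pecam1, 0.16 for Cdh5, 0.12 for Flt1 and 0.28 for Tek, all inside the range of the genes without one, which ran from -0.25 to 0.44. In Flt1 the match is in the short transcript Flt1-002 (0.06) and not in the full-length Flt1-001 (0.15). The ratio of the gene mixes both. Tek and Kdr, the latter at the low end of that range, were under 1 FPKM in both libraries. Among genes at 1 FPKM or more, those without a match ran from 0.18 for Esam to 0.44 for Vwf. These were all above the 3 with GTCTTCC. With an overlapping unannotated transcript added, Pdgfrb was at 0.06, below all 3. With 1 library per title and contradictory genotype labels, a relation between motif and ratio was not tested. A match is a stretch of letters and was not tested as a site of binding.

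The vascular genes differed little between the libraries. Log2 ratios, computed after adding 0.1 FPKM to both values, ran from -0.25 for Kdr to 0.44 for Vwf. Of the 10 genes, 9 were higher in the miR-7KD-titled library, and Kdr was lower, whereas 48.9% of all 13381 genes were higher. The 8 genes that reached 1 FPKM in either library were all higher, with a median log2 ratio of 0.20, whereas 48% of the 11969 genes at that level were higher and their median was -0.01. None of the 8 was 2-fold different in either direction, against a background of 6.01% of genes 2-fold higher and 5.58% lower. None was 1.5-fold different either, where 10.3% of genes were higher and 9.72% lower by that measure. Among genes with at least 7 exons, the fewest of any member, the background was 2.92% and 2.83%, so that a count of 0 among 8 genes lies near what the whole table shows. Sizes this small were common, as 66.2% of all genes at 1 FPKM or more had a log2 ratio within the range of the 10, and the median size over all genes was 0.19. In tissue RNA of this kind, more vascular cells and more vascular RNA per cell cannot be told apart. The 10 genes come from the same vessels in the same 2 libraries, so their shared direction is not a set of independent observations. They were also chosen with earlier results of these data known.

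**Figure D1:**
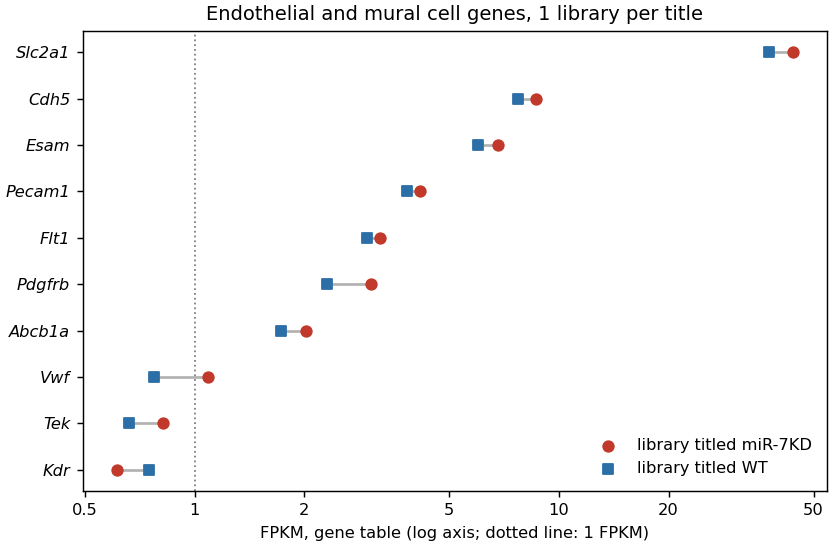
FPKM of the 10 genes (log axis) in the miR-7KD-titled library (red circles) and the WT-titled library (blue squares), 1 library each, ordered by level. Slc2a1 lies far to the right of the others at 43.8 and 37.6 FPKM, and Kdr is the gene whose red circle lies left of its blue square.

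**Figure D2:**
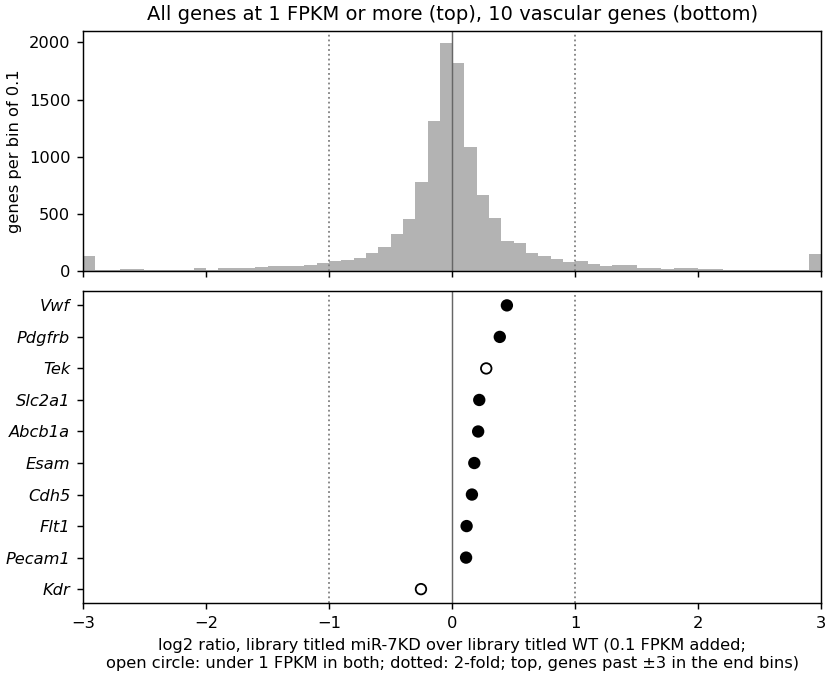
Top, number of genes per bin of 0.1 in the log2 ratio over the 11969 genes at 1 FPKM or more, with genes beyond the axis gathered in the end bins. Bottom, the same ratio for each of the 10 genes, with open circles for Kdr and Tek, which were under 1 FPKM in both libraries. All 10 lie inside the dotted 2-fold lines, in the tall middle of the distribution.

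Levels per length spanned a wide range, and Slc2a1 alone made up 59.0% and 58.5% of the summed FPKM of the 10 genes, which was 74.3 and 64.4. Without it the sums were 30.4 and 26.7. By the gene table, the order in both libraries was Slc2a1, Cdh5, Esam, Pecam1, Flt1, Pdgfrb, Abcb1a and Vwf, followed by Tek and Kdr in the miR-7KD-titled library and by Kdr and Tek in the WT-titled library. By the sum of listed transcripts Esam (10.4 and 9.22 FPKM) stood above Cdh5 (9.09 and 8.12) and Kdr above Tek in both libraries, and the order was otherwise the same. Without replicates it cannot be said which neighbours in that order differ beyond their spread. Slc2a1 exceeded 94.8% and 93.8% of listed genes. Vwf, above 15.7% and 10.5% of listed genes, was near the bottom with Tek and Kdr, where the table itself ends, because no gene with a maximum under 0.501 FPKM over both libraries is listed in it.

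The junction and adhesion genes were all slightly higher in the miR-7KD-titled library. Cdh5 (ENSMUSG00000031871.9, chr8:104101625-104144511, 12 exons) encodes VE-cadherin, the adhesion molecule of endothelial adherens junctions, and was at 8.64 FPKM in the miR-7KD-titled library and 7.72 in the WT-titled library (log2 ratio 0.16). Its only listed transcript, Cdh5-001, was at 9.09 and 8.12 FPKM. Of genes at 1 FPKM or more, 54.6% differed by more than Cdh5 did.

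Esam (ENSMUSG00000001946.13, chr9:37528078-37538319, 7 exons) encodes an adhesion molecule of endothelial tight junctions and platelets, and was at 6.79 and 5.98 FPKM (log2 ratio 0.18). Nearly all of its signal came from the full-length Esam-001, at 9.92 and 8.71 FPKM. The short Esam-004, annotated with 3 exons, was at 0.460 and 0.510 and so was among the few transcripts of these genes that were lower in the miR-7KD-titled library.

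Pecam1 (ENSMUSG00000020717.19, chr11:106654217-106750628, 16 exons) encodes CD31, an adhesion molecule at endothelial cell borders through which leukocytes pass, and was at 4.16 and 3.84 FPKM. Its log2 ratio of 0.11 was the smallest in size of the 10. The transcripts of this gene differ in the cytoplasmic tail, where exons 14 and 15 may be skipped. The sequences below show where they part, with the optional exon in capitals.
Pecam1-003, exon 13 joined to exon 14: ttgagcctcaccaagCTCTGGGAACGAGAG
Pecam1-004, exon 13 joined to the last exon: ttgagcctcaccaagagaacggaaggctcc
Pecam1-001, the whole of exon 15: ATCTCATGGAAAACAGATACTCT
Exon 14 (chr11:106671742-106671798) adds 57 bases, or 19 codons, and is in Pecam1-001 and Pecam1-003. Exon 15 (chr11:106662002-106662024) adds 23 bases and is in Pecam1-001 alone. All 3 transcripts were measured in both libraries and all hold GTCTTCC once.

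The 3 Pecam1 transcripts did not go the same way. Pecam1-001, which keeps both exons, was at 2.14 FPKM in the miR-7KD-titled library and 1.60 in the WT-titled library (log2 ratio 0.40). Pecam1-003, without exon 15, was at 2.21 and 1.96 (0.17). Pecam1-004, without either, was at 2.96 and 3.36 (-0.18). The form without either exon was the most abundant in each library, at 40.5% and 48.6% of the listed FPKM of the gene, and Pecam1-001 made up 29.2% and 23.1%. These shares are the authors' division of reads among transcripts that overlap over most of their length, and their error is not known.

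Flt1 was the more abundant of the genes for the receptors of VEGF-A, a growth factor that drives vessel growth and permeability. Flt1 (ENSMUSG00000029648.13, chr5:147561604-147726011, 30 exons), which encodes VEGF receptor 1 and binds VEGF-A, VEGF-B and PlGF, was at 3.23 and 2.97 FPKM (log2 ratio 0.12). It has a full-length transcript of 3999 coding bases, Flt1-001, and a short transcript of 13 exons and 2064 coding bases, Flt1-002, in which exon 13 runs on past its splice site. Run-on of this kind is known to give soluble FLT1, a secreted receptor without membrane anchor and kinase that captures VEGF-A. The capitals mark the bases that belong to the intron in Flt1-001.
Flt1-001, exon 13 joined to exon 14: aagttctcgttagagattcggaagcgccac
Flt1-002, exon 13 running on: aagttctcgttagagGTGAGCACTGCGGCA
The run-on adds 92 coding bases (chr5:147639133-147639224) and leads to a 3′-UTR of 3971 bases, which holds the GTCTTCC shown above. The 3′-UTR of Flt1-001, of 2616 bases, does not hold it.

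Both Flt1 transcripts were at similar levels in the libraries. Flt1-001 was at 4.17 FPKM in the miR-7KD-titled library and 3.76 in the WT-titled library (log2 ratio 0.15). Flt1-002 was at 2.36 and 2.25 (0.06). The short form was thus at 0.565 and 0.600 of the level of the full-length form.

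Kdr (ENSMUSG00000062960.10, chr5:75932827-75978458, 30 exons) encodes VEGF receptor 2, the main signaling receptor of endothelial cells for VEGF-A, and was at 0.611 and 0.748 FPKM. It was the only member that was lower in the miR-7KD-titled library, with a log2 ratio of -0.25, and it was under 1 FPKM in both. Its transcript Kdr-001 was at 0.932 and 1.14 FPKM (-0.27). All annotated exons of Kdr together cover 9030 bases, whereas Kdr-001 has 5924. When the FPKM of the transcript was rescaled to the longer length, the value of the gene table was met within 1% in both libraries for Kdr, as it was for Cdh5, Flt1 and Pdgfrb and for 3268 of 12984 genes. For these genes the gene table thus gives a level per base of all annotated exons, and levels of different receptors are compared here by transcript. Flt1-001 was at 4.47 times the level of Kdr-001 in the miR-7KD-titled library and at 3.30 times in the WT-titled library.

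Tek (ENSMUSG00000006386.15, chr4:94739289-94874976, 23 exons) encodes TIE2, the receptor of the angiopoietins, which keeps the endothelium quiet when ANGPT1 is bound. It was at 0.821 FPKM in the miR-7KD-titled library and 0.660 in the WT-titled library (log2 ratio 0.28), under 1 FPKM in both. Each library listed another transcript of it. Tek-001 was at 0.691 in the miR-7KD-titled library and listed at 0 in the WT-titled library. Tek-002 was listed at 0 in the former and at 0.668 in the latter. They differ in an extra exon of 153 bases, or 51 codons (exon 4, chr4:94799127-94799279), which Tek-002 keeps, in capitals below where it begins.
Tek-001, exon 3 joined past the extra exon: tgatttacaaaaatggatgtgaagctcaga
Tek-002, exon 3 joined to the extra exon: tgatttacaaaaatgGCTCCTTCATCCACT
The sum over both transcripts gave a log2 ratio of 0.04. Of all listed transcripts 6.05% were at 0 in 1 library, and of 5295 genes with at least 2 listed transcripts 1.96% had 1 at 0 in each library, as Tek did. Whether these values stand for absence or for a failed estimate was not tested. ACTTGTT is in the 3′-UTR of both.

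Vwf (ENSMUSG00000001930.17, chr6:125546774-125686679, 52 exons) encodes von Willebrand factor, the glycoprotein that endothelial cells store and release to hold platelets at a damaged wall. It was at 1.09 and 0.774 FPKM, and its log2 ratio of 0.44 was the largest of the 10. Vwf-001 was at 1.84 and 1.32 FPKM (0.45). Of genes at 1 FPKM or more, 25.9% differed by more. Platelets also carry this protein. Of 9 platelet markers 3 were in the gene table, and the 1 of them at 1 FPKM or more, Gp1bb, was at 4.11 and 3.28 FPKM (0.32). Unannotated transcripts over Gp1bb were at 44.5 and 9.68 FPKM, and with them added its log2 ratio was 1.90. Under 1 FPKM in both libraries were Itga2b, lower at 0.572 and 0.674, and Gp5, higher at 0.776 and 0.421. The part of platelets in the level of Vwf was not tested.

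**Figure D3:**
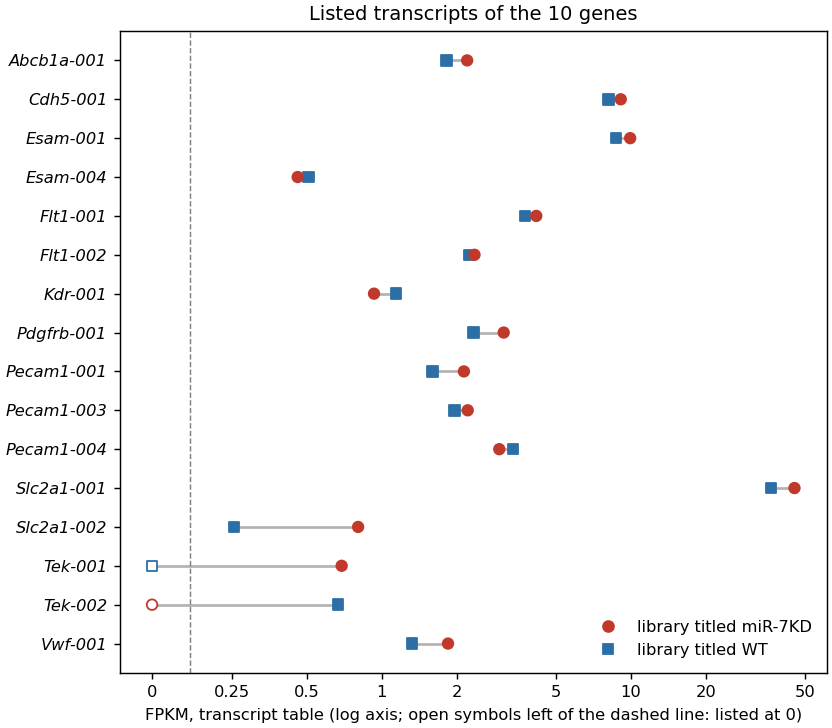
FPKM (log axis) of the 16 listed transcripts of the 10 genes in the miR-7KD-titled library (red circles) and the WT-titled library (blue squares), with open symbols at the left for values listed at 0. Red lies to the right of blue in 12 of 16, the exceptions being Pecam1-004, Kdr-001, Esam-004 and Tek-002, and each Tek transcript is listed at 0 in 1 library.

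Over the 16 transcripts of the 10 genes, 12 were higher and 4 lower in the miR-7KD-titled library. Of the 12 that reached 1 FPKM in either library, 10 were higher and 2 lower, and 0 were 2-fold different, where 12% of 18988 transcripts were 2-fold higher and 12.2% lower. The share of all transcripts that were higher was not computed, so these directions have no background. Abcb1a, Cdh5, Kdr, Pdgfrb and Vwf have only 1 listed transcript each, so that the counts in part repeat those of the genes.

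The barrier transporters were both modestly higher. Slc2a1 (ENSMUSG00000028645.11, chr4:119108711-119137983, 10 exons) encodes GLUT1, which carries glucose across the blood-brain barrier and is also made by astrocytes and erythroid cells. It was at 43.8 FPKM in the miR-7KD-titled library and 37.6 in the WT-titled library (log2 ratio 0.22). Slc2a1-001 was at 45.2 and 36.4 (0.31). Slc2a1-002, a fragment of 5 exons, was at 0.804 and 0.256 FPKM, under 1 in both. Of the other cells that make GLUT1, the 10 astrocyte markers summed to 290 and 491 FPKM and had a median log2 ratio of -0.08, with Gja1 and Slc1a2 2-fold lower and Kcnj10 listed at 0 in the miR-7KD-titled library. The 5 of 7 erythroid markers in the table summed to 733 and 793 FPKM, and all 5 were lower (median -0.12). Their part in the level of Slc2a1 was not tested. Exons of Slc2a1 overlap Gm12868 on the other strand, and whether counting used strand is not stated in the sources used here.

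Abcb1a (ENSMUSG00000040584.8, chr5:8660077-8748575, 28 exons) encodes P-glycoprotein, the efflux pump that returns many drugs from the brain endothelium to the blood. It was at 2.02 and 1.73 FPKM (log2 ratio 0.21), and Abcb1a-001 at 2.20 and 1.82 (0.26). The related pump gene Abcb1b was at 1.07 and 0.915 FPKM, with a log2 ratio of 0.21. The transcripts of both genes are alike in places, as 15.5% of the 50-base stretches of Abcb1a occur in Abcb1b too, so that reads could have been divided between them. Exons of Abcb1a also overlap Gm42686 on the other strand.

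An unannotated transcript ran along Abcb1a on the same strand. It had 30 exons and 5139 bases, began 92948 bases before the annotated start of the gene and ended at the same base as the gene (chr5:8567129-8748575). It was at 2.02 FPKM in the miR-7KD-titled library and 0.00542 in the WT-titled library. With its FPKM added, Abcb1a was at 4.04 and 1.74, a log2 ratio of 1.17, which is past 2-fold. This reading was added after the values were seen. It is the only reading tried under which any of the 10 genes was 2-fold different, and under it 7.06% of 12085 genes were 2-fold higher and 6.41% lower. By the sum of listed transcripts, where 6.57% of genes were 2-fold higher and 6.3% lower, none of the 10 was. Unannotated transcripts on the same strand overlapped 40.4% of genes at 1 FPKM or more, so that their presence is common. Whether this transcript is an extended form of Abcb1a or a product of transcript assembly in 1 library was not tested.

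Pdgfrb (ENSMUSG00000024620.11, chr18:61045150-61085061, 23 exons) encodes the platelet-derived growth factor receptor of pericytes and is the only mural gene of the 10. It was at 3.05 and 2.31 FPKM, with a log2 ratio of 0.39, second to Vwf. Pdgfrb-001 was at 3.09 and 2.34. An unannotated transcript of 23 exons lay over the same span (chr18:61045152-61085105) and went the other way, at 3.12 and 3.60 FPKM. With it added, Pdgfrb was at 6.17 and 5.91 FPKM and its log2 ratio was 0.06. The difference of Pdgfrb thus depends on how reads were divided between transcripts of nearly the same span.

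**Figure D4:**
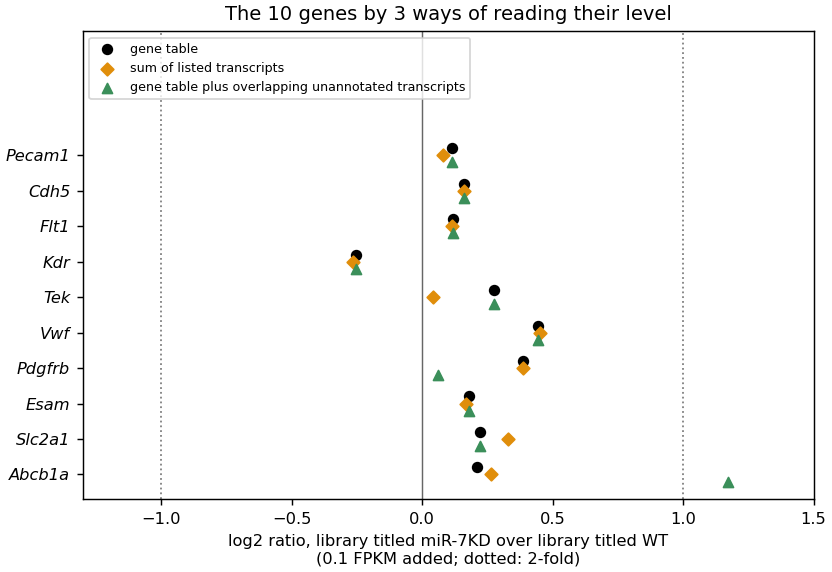
Log2 ratio of each of the 10 genes by the gene table (black circles), by the sum of its listed transcripts (orange diamonds) and by the gene table plus overlapping unannotated transcripts (green triangles). The readings lie close together for most genes and part for Tek, Pdgfrb and Abcb1a, whose green triangle at 1.17 is the only point past 2-fold.

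The ligands and co-receptors of these receptors were measured in the same tissue, and none was 2-fold different by the gene table. Of all genes at 1 FPKM or more, 6.01% were 2-fold higher and 5.58% lower, so that none in so small a group lies near the background. Vegfa was at 5.59 and 6.79 FPKM and was lower, whereas of its receptors Kdr was lower and Flt1 higher. Vegfb and Pgf, whose products bind FLT1 and not KDR, were at 27.1 and 26.3 and at 5.40 and 4.83 FPKM. Nrp1, a co-receptor of KDR, was at 4.03 and 2.93, and Nrp2 at 1.92 and 2.56. Flt4, the receptor of VEGF-C, was at 1.03 and 0.871 FPKM. Its ligands Vegfc and Figf (VEGF-D) were at 0.616 and 0.705 and at 1.43 and 1.15.

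The ligands of TEK had the largest differences of this group by the gene table. Angpt2, which endothelial cells release on activation and which can oppose ANGPT1, was at 1.85 FPKM in the miR-7KD-titled library and 3.17 in the WT-titled library (log2 ratio -0.75). Angpt1 was at 0.780 and 0.492, under 1 FPKM in both. The ligand of PDGFRB, Pdgfb, was at 2.41 and 2.61 FPKM. Pdgfa was at 6.11 and 8.17, Pdgfc at 1.54 and 1.81, and the receptor gene Pdgfra, a marker of oligodendrocyte precursors and fibroblasts, at 6.64 and 6.71. Adding overlapping unannotated transcripts moved Angpt1 to a log2 ratio of 1.84 and Pdgfa to -1.70, and left the other genes of this group under 2-fold. By the sum of listed transcripts Pdgfc turned from a log2 ratio of -0.22 to 0.28 and Pdgfra from -0.01 to 0.05.

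Wider lists of vascular genes held none of the 10 and were more divided. Of 39 other genes of endothelial identity 34 were in the gene table and 30 at 1 FPKM or more, of which 15 were higher and 15 lower. Their median log2 ratio was -0.01, against 0.20 for the 8 genes at that level described above. Both sets were chosen with earlier results of these data known. Of the 30, 2 were 2-fold higher and 2 lower, where 6.01% of all genes at that level were 2-fold higher and 5.58% lower. Podxl, a sialomucin of the luminal endothelial surface, was at 7.70 and 2.23 FPKM (1.74). Cd34, a surface glycoprotein of endothelial and progenitor cells, was at 3.65 and 7.53 (-1.02), and Mmrn2, an endothelial matrix protein, at 0.721 and 1.74 (-1.17). Cldn5, the chief claudin of barrier tight junctions, was at 24.7 FPKM in the miR-7KD-titled library and listed at 0 in the WT-titled library. It is a gene of 1 exon, and no ratio is given against a value listed at 0.

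**Figure D5:**
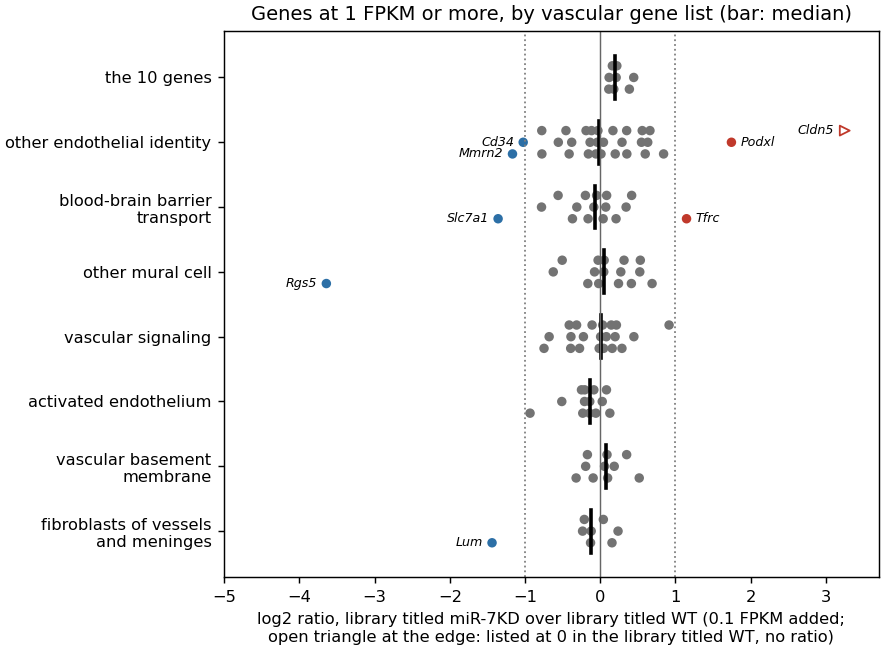
Log2 ratio of genes at 1 FPKM or more, 1 point per gene, in the 10 genes and in 7 other vascular lists, with black bars for medians and names for genes 2-fold different (red higher, blue lower in the miR-7KD-titled library, open triangle for Cldn5, which was listed at 0 in the other library). The 8 kept genes lie in a narrow band to the right of 0 with a median of 0.20, whereas the other lists have medians between -0.14 and 0.07 and points on both sides.

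Of 16 barrier transport genes at 1 FPKM or more other than Slc2a1 and Abcb1a, 7 were higher and 9 lower (median -0.07). Of these, 1 was 2-fold higher and 1 lower, where 6.01% of all genes at that level were 2-fold higher and 5.58% lower. Tfrc, the transferrin receptor that brings iron to the brain and is also made by neurons and erythroid precursors, was at 28.4 and 12.8 FPKM (1.15). Slc7a1, a carrier of cationic amino acids, was at 1.70 and 4.53 (-1.36). The efflux pump gene Abcg2 was at 1.90 and 1.80, nearly the same.

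The mural list went with Pdgfrb only in part. Of 16 other mural genes at 1 FPKM or more, 9 were higher and 7 lower. The median was 0.05, against 0.39 for Pdgfrb. Higher besides Abcc9 were Heyl (log2 ratio 0.69), Myh11 (0.53), Mcam (0.41), Ndufa4l2 (0.32), Vtn (0.27), Kcnj8 (0.24), Zic1 (0.05) and Atp13a5 (0.05). Lower besides Higd1b, Rgs5 and Notch3 were Tagln (-0.63), Cald1 (-0.17), Mylk (-0.08) and Acta2 (-0.03). Among the pericyte genes, Abcc9 was at 1.99 and 1.34 FPKM and Cspg4, under 1 FPKM in both libraries, at 0.927 and 0.682. Des, also under 1 FPKM in both, was at 0.805 and 0.636. Of the same list, Higd1b was lower, at 1.60 and 2.31 FPKM. Anpep (0.405 and 0.766) and Art3 (0.862 and 0.936), under 1 FPKM in both libraries, were lower too. Rgs5, a regulator of G-protein signaling that marks brain pericytes, was at 1.60 FPKM in the miR-7KD-titled library and 21.1 in the WT-titled library (log2 ratio -3.64). It was the only 1 of these 16 that was 2-fold different, where 6.01% of all genes at that level were 2-fold higher and 5.58% lower. Foxf2, a transcription factor of pericytes, was under 1 FPKM, listed at 0 and at 0.734. Notch3, a receptor of vessel smooth muscle and pericytes, was at 1.95 and 1.98.

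Of 13 genes listed for activated endothelium at 1 FPKM or more, among them the leukocyte adhesion genes Icam1 and Vcam1, 3 were higher and 10 lower, where 48% of all genes were higher. None was 2-fold different, against the background of 6.01% higher and 5.58% lower, and the median log2 ratio was -0.14. Icam1 was at 4.25 and 5.01 FPKM, Vcam1 at 3.64 and 4.02, and the venular chemokine receptor gene Ackr1 at 13.4 and 25.7 (-0.93). With an overlapping unannotated transcript added, the log2 ratio of Ackr1 was -0.08. The higher genes were Ptgs2, Plat and Il1r1. By summed transcripts Il4ra turned from -0.51 to 0.21 and Procr from -0.25 to 0.07, so the count of directions depends on the reading. The vascular signaling list had a median of 0.00, the basement membrane list one of 0.07 and the list of vessel and meningeal fibroblasts one of -0.12, the last with Lum 2-fold lower (0.375 and 1.19 FPKM).

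Markers of cells other than endothelium stood beside these values as follows. The neuronal list had a median log2 ratio of 0.06, oligodendrocytes 0.10, microglia 0.18 and choroid plexus -0.20. Of all genes at 1 FPKM or more, 6.01% were 2-fold higher and 5.58% lower. Of the 8 microglial markers, Cx3cr1 was 2-fold different, at 0.0172 and 3.03 FPKM, and was under 2-fold with an overlapping unannotated transcript added (-0.76). The 10 astrocyte markers were divided, with 4 higher, 6 lower and a median log2 ratio of -0.08. Far lower in the miR-7KD-titled library were Gja1 (1.15 and 46.5 FPKM), Slc1a2 (24.5 and 141) and Kcnj10 (listed at 0 and at 29.2). The 4 higher ones were Mlc1 (log2 ratio 0.22), Hepacam (0.09), Aqp4 (0.04) and Aldh1l1 (0.03). With overlapping unannotated transcripts added, Hepacam (-0.53) and Aqp4 (-0.02) were lower, and Aldh1l1 stayed higher (0.23). The neutrophil genes S100a8 and S100a9 were at 6.99 and 6.38 and at 7.18 and 3.80 FPKM, and of 7 genes of border macrophages 2 were listed and 0 reached 1 FPKM. The part of the makeup of the tissue in the values of the 10 vascular genes was not tested.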

How the data were processed

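RNA of mouse brain tissue was represented by 2 libraries. The authors deposited 4 tables of FPKM. Those of protein-coding genes, protein-coding transcripts and unannotated transcripts (10238 entries) were used, and that of unannotated genes was not. Bowtie 0.12.2 and mm8 are named in the processing notes of the submitters, and no source used here names the program behind the FPKM values. Positions are those of GRCm38, as all 10 genes lie at their GENCODE M21 start and end. The study describes an array, whereas the deposited values are FPKM.

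The dose and time of LPS come from the methods of the study. Table columns were matched to samples through the animal numbers that the titles carry. Log2 ratios of FPKM were computed with 0.1 added, which understates the change of low genes, and read against 2-fold for genes that reached 1 FPKM in either library. No test was made, and no interval is given because the depth is unknown. The calling steps were tried on simulated data, which does not measure the error between the libraries. Alternatives were other pseudocounts (0.01 and 1), a rescaled median, summed transcripts, added unannotated transcripts, other folds (1.5 and 3) and other minimum levels. An overlap needed 1 base on the same strand.

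The named genes were to be all 10 members with their transcripts, every 2-fold different gene of 16 context lists (232 genes), Abcb1b, and ligands and co-receptors of Flt1, Kdr, Tek and Pdgfrb. Other list genes named, such as Icam1, Abcc9 or Gp1bb, were chosen after their values were seen. Members and lists were chosen with earlier results of these data known. Python 3.11.15, numpy 2.4.6, pandas 2.3.3 and matplotlib 3.10.9 were used.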

Additional observations from a re-analysis of the deposited data

Results flagged for a closer look

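The table of unannotated transcripts held a transcript across Abcb1a at 2.02 FPKM in the miR-7KD-titled library and at 0.00542 in the WT-titled library. It was looked at because it lies in a table that the comparison of the 10 genes does not use. With 1 library per title, no spread can be set against the difference.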

How the results depend on the processing

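No member was 2-fold different with other pseudocounts, rescaling, summed transcripts, folds or minimum levels, and the median log2 ratio stayed between 0.15 (1 FPKM added) and 0.21 (rescaled). With overlapping unannotated transcripts added, chosen after seeing the data, 1 member, Abcb1a, was 2-fold higher (log2 ratio 1.17). By construction this adds a transcript listed almost wholly in 1 library. Of 60 alternative values for single members, this was the 1 whose ratio of FPKM moved by over 1.5 times or crossed 2-fold, and 0 changed sign. On the log2 scale, values became smaller with 1 FPKM added for Kdr (-0.12), Tek (0.13) and Vwf (0.24), by summed transcripts for Tek (0.04) and with unannotated transcripts for Pdgfrb (0.06). Of 162 values for the context genes that were to be named, 17 moved that far or crossed 2-fold. Among the 162 values 2 changed sign, Pdgfc and Pdgfra by summed transcripts, neither 2-fold different. Genes named after their values were seen are not in these counts. Of those, Gp1bb moved to 1.90 and Ackr1 to -0.08 with unannotated transcripts added. Hepacam turned from 0.09 to -0.53 and Aqp4 from 0.04 to -0.02 in the same way. By summed transcripts Abcg2 turned from 0.07 to -0.03, Il4ra from -0.51 to 0.21 and Procr from -0.25 to 0.07. With 1 FPKM added, Cd34 (-0.88), Mmrn2 (-0.67) and Lum (-0.67) fell under 2-fold, and with unannotated transcripts added so did Cd34 (-0.85) and Cx3cr1 (-0.76). Over all genes with such transcripts, 229 of 384 calls held and 335 were added. Unannotated transcripts that lie wholly within a gene touched none of the 10. No paired analysis was possible because each title has 1 library. The depth is unknown, so the counting error of low values, such as those of Kdr, Tek and Vwf, cannot be given.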
